A study of Mus musculus with 4 samples.

Results

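The genes of potassium channels and their accessory subunits were described in mouse prefrontal cortex. They were chosen by name: each gene whose symbol starts with Kcn and a further letter was taken once, apart from 3 that were not analysed here, which gave 96 of the 46320 gene identifiers in the deposited tables. By the letters that follow Kcn, 39 encode pore subunits of voltage-gated channels, 15 inward rectifiers, 13 leak channels and 17 accessory subunits. Another 8 form an ion-activated group, of channels opened by calcium or sodium, in which Kcnu1 was placed by its letters alone. The last 4 are transcripts of the opposite strand of such genes. Of the 96 genes, 94 lie on autosomes and Kcnd1 and Kcne1l on the X chromosome.

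RNA-seq and MethylC-seq, which reads the methylation of single cytosines after bisulfite treatment, were carried out on female mice at 14 weeks of age, and each assay has 2 libraries. Per the labels, every library came from hybrid mice of the strain C57BL6J/Spretus with a mutation of Xist, the noncoding RNA that brings about X inactivation, on the maternal allele, and there was no other group. The tissue was frontal cortex pooled over 2 individuals from separate litters. No cross in the other direction was analysed here, so the strain of an allele and the parent it came from cannot be told apart, and no library without the Xist mutation was analysed here either. Nothing in the labels ties the libraries to different animals. The p-values of edgeR and DESeq2 therefore reflect no more than the spread between libraries, which may be technical. Those of Fisher's exact test and the exact binomial test reflect counting error alone.

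Potassium channels let potassium leave a neuron and return its membrane to rest. Voltage-gated channels end the action potential and limit repeated firing, inward rectifiers and leak channels set the resting potential, and channels opened by intracellular calcium or sodium follow activity. Accessory subunits bind the pore subunits and change their gating or their transport to the membrane.

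An allele could be assigned to 4768237 reads of library 1 and 1291903 of library 2, a 3.69-fold difference in depth. FPKM (fragments scaled by transcript length and library size, for both alleles together) stood on different scales, since the median gene with at least 1 FPKM in library 1 was 5.88 times lower in library 2, where Yam1 made up 59.0% of the FPKM sum against 18.5% in library 1. Neuronal markers had median FPKM values of 455 and 107, and choroid plexus markers of 0.383 and 0.161. Xist, the targeted gene, drew 98.7% of its 2993 reads from Spretus, and on the autosomes the Spretus share was 47.9% (library 1) and 48.0% (library 2). Shares are therefore read against about 48%, which corresponds to a scaled log2 ratio near 0.

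The 5′ flanks of 3 genes are shown, the 2 autosomal genes called with allelic imbalance and the gene with a listed difference in methylation near its start: Kcne1l, an X-linked accessory subunit; Kcnn3, a channel of small conductance opened by calcium; and Kcng4, a silent voltage-gated subunit that works only together with other pore subunits. Each sequence covers the 250 bases before the RefSeq start in GRCm38.p6, read 5′ to 3′ on the gene's own strand, with each CG in capitals. They lie at chrX:142306199-142306448 on the minus strand, chr3:89519914-89520163 on the plus strand and chr8:119635681-119635930 on the minus strand, in that order. They are reference sequence, with no Spretus bases.
Kcne1l: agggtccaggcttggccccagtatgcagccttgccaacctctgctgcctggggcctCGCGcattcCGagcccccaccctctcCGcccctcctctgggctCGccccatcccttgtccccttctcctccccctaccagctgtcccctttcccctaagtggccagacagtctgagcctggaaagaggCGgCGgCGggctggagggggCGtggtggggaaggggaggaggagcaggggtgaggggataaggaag
Kcnn3: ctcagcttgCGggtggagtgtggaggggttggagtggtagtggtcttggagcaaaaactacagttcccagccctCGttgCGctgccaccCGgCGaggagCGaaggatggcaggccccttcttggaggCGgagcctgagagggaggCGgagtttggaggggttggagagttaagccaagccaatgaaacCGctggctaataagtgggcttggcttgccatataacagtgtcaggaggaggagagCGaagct
Kcng4: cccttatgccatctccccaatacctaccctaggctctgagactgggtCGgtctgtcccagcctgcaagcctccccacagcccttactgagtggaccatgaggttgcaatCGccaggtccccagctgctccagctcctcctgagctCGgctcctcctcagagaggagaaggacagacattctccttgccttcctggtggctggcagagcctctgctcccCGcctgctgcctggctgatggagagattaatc
The Kcne1l flank holds 9 CG and the Kcnn3 flank 10, and 40.3% and 37.8% of all such flanks hold at least as many. The Kcng4 flank holds 4, which 62.2% of flanks reach. A RefSeq flank was matched for 71 of the 96 genes, and each gene was taken at its flank with most CG, which gave a median of 10 CG against 6 over 27025 genes in the table. The 52 matched genes with an FPKM of at least 1 in library 1 had a median of 14 CG and the other 19 a median of 6, beside 17 and 3 for all genes split in the same way.

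Every group of potassium channel genes was present in this cortex, with the highest group median among voltage-gated genes. An FPKM of at least 1 in each library was reached by 47 of the 96 genes (49.0%), against 19.4% of all genes in the tables. In library 1 alone 72 genes reached it, 25 of them in that library only, and 24 genes reached it in neither. With library 2 brought to the scale of library 1 by the median ratio, 68 genes reached it in each. Kcna7, Kcnj1, Kcnj5, Kcnk16 and Kcne1 were listed at 0 in both libraries. The median over the 96 genes was 5.72 FPKM in library 1 and 0.865 in library 2. Glutamate and GABA receptor subunits had medians of 17.2 and 3.43, with 32 of 43 genes at 1 FPKM or more in each library, and sodium and calcium channel genes had 18.5 and 2.37, with 27 of 40. In bulk tissue, fewer cells of a type and less RNA per cell cannot be told apart in any of these levels.

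**Figure D1:**
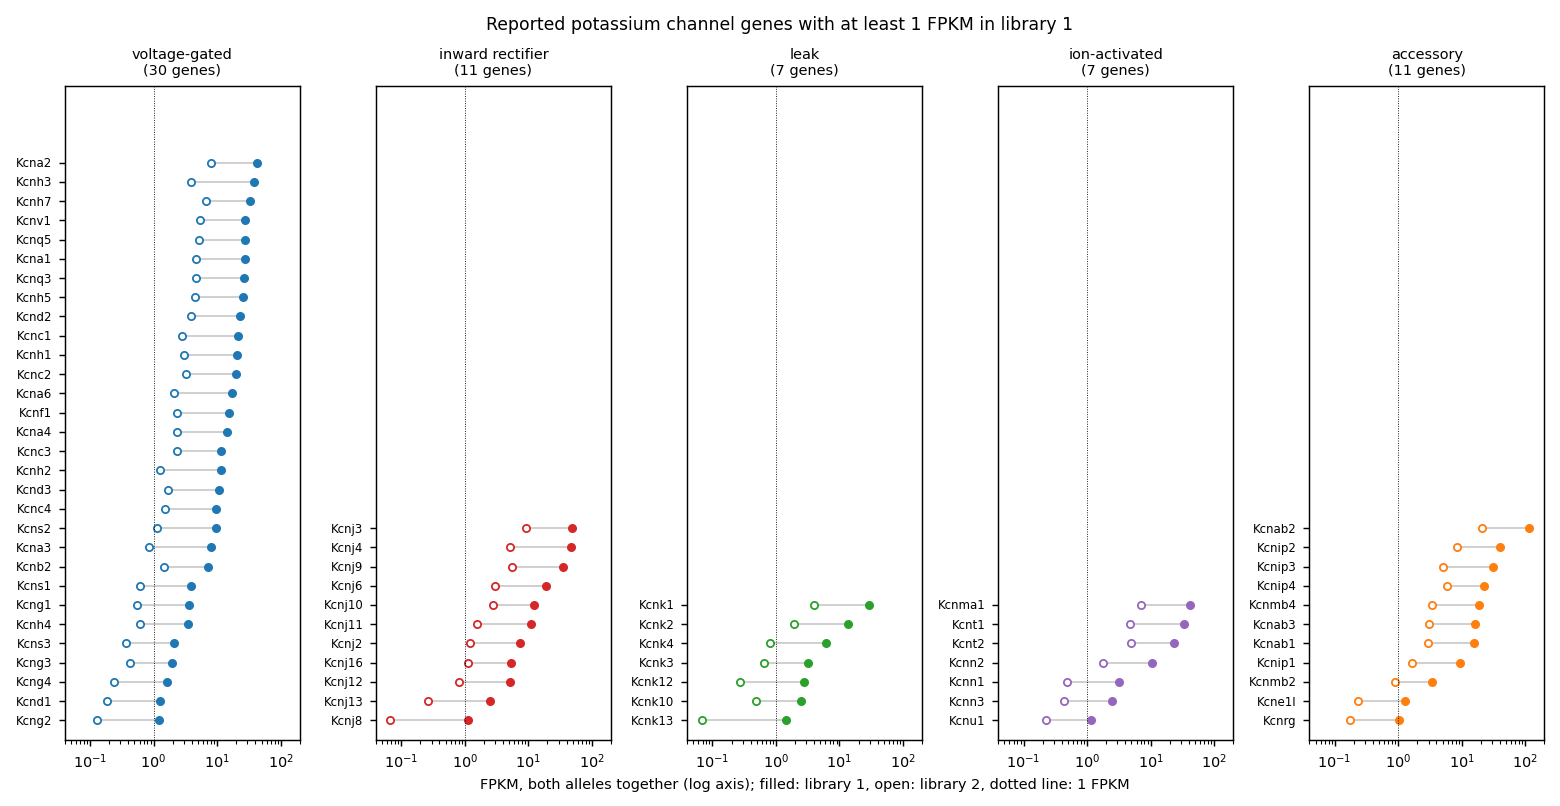
FPKM on a log axis of 66 potassium channel and accessory genes with at least 1 FPKM in library 1, by group, with opposite-strand transcripts left out. Filled points are library 1, open points library 2 and the dotted line is 1 FPKM; Kcnab2 stands highest in both libraries, and only 2 of the leak channel genes lie right of the line in both.

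Voltage-gated pore subunits had a median of 10.6 FPKM in library 1 and 1.5 in library 2, and 23 of 39 reached 1 FPKM in each. Kcna2, an axonal subunit of the Shaker type, stood at 42.1 and 7.93 FPKM. Kcnh3, of the ether-a-go-go family, stood at 37.8 and 3.93 FPKM, so that it followed Kcna2 in library 1 but stood below Kcnh7 (32.8 and 6.58 FPKM), of the same family, in library 2. Kcnq3 and Kcnq5, subunits of the slow M-current that restrains repeated firing, stood at 26.3 and 27.9 FPKM in library 1. Kcnb2, a delayed rectifier, stood at 7.10 and 1.45 FPKM. Kcnd2, which carries the rapidly inactivating A-type current of dendrites, had 22.8 and 3.92 FPKM, and its relative Kcnd3 had 10.6 and 1.69. All 4 Kcnc genes, which encode rapidly closing channels known from fast-spiking interneurons, passed 1 FPKM in each library, with 9.74 to 20.9 FPKM in library 1. Among silent subunits, Kcnv1 (27.9 FPKM in library 1) and Kcnf1 (15.2 FPKM) were high, and the 4 Kcng genes lay between 1.24 and 3.57 FPKM. Kcnh8, Kcnv2, Kcna10 and Kcna7 had under 0.2 FPKM in library 1.

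Inward rectifiers had medians of 5.40 and 1.12 FPKM, with 8 of 15 at 1 FPKM or more in each library. Kcnj3, a subunit of the channels that G proteins open, stood at 49.6 and 9.29 FPKM. Kcnj4, a strong inward rectifier, followed at 46.3 and 5.12 FPKM. Kcnj9, which joins Kcnj3 in G-protein-gated channels, stood at 35.0 and 5.50 FPKM, so that Kcnj4 and Kcnj9 changed places between the libraries. Kcnj10, the main inward rectifier of astrocytes, had 12.4 and 2.81 FPKM. Kcnj11, the pore of ATP-sensitive channels in neurons, had 11.0 and 1.56 FPKM, and Kcnj8, the pore of the vascular form, 1.14 and 0.0675.

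Leak channels, built of subunits with tandem pore domains, had the lowest median of the pore-forming groups, with 1.46 and 0.107 FPKM. Kcnk1 stood well above the others with 28.9 and 3.91 FPKM. Kcnk2, a channel sensitive to stretch, had 13.5 and 1.92 FPKM, and these were the only leak channel genes at 1 FPKM or more in each library. Its relative Kcnk4 stood at 6.04 and 0.814 FPKM. Kcnk18, Kcnk15, Kcnk7 and Kcnk5 had under 0.2 FPKM in library 1.

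Pore subunits of the ion-activated group, Kcnu1 included, had medians of 6.78 and 1.15 FPKM. Kcnma1, the channel of large conductance opened by calcium and voltage, led with 42.5 and 7.04 FPKM. The sodium-activated Kcnt1 stood at 33.2 and 4.70 FPKM. Its relative Kcnt2 stood at 23.8 and 4.96 FPKM, so that their order turned between the libraries. Of the channels of small conductance, Kcnn2 had 10.4 and 1.81 FPKM, Kcnn1 3.15 and 0.486, and Kcnn3 2.47 and 0.428.

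Accessory subunits had medians of 3.37 and 0.876 FPKM, and 8 of 17 reached 1 FPKM in each library. They held the highest single value, with Kcnab2, a cytosolic beta subunit of Kcna channels, at 113 and 20.8 FPKM. Kcnip2, a calcium-binding partner of Kcnd channels, stood at 40.6 and 8.37 FPKM. Kcnip3 of the same family stood at 31.3 and 5.05 FPKM, and all 4 Kcnip genes passed 1 FPKM in each library. Kcnmb4, the beta subunit of Kcnma1 known from brain, had 18.9 and 3.36 FPKM, while Kcnmb1, known from smooth muscle, had 0.0640 and 0.0279. Of the Kcne genes, single-pass subunits best known from heart and epithelia, Kcne1l had 1.29 FPKM in library 1 and the other 4 had 0.370 or less.

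The opposite-strand transcripts overlap the channel genes they are named after, so their values and those of the partners are uncertain, since it is not given whether counting used strand. Kcnmb4os1 stood at 16.6 and 2.45 FPKM but had 0 reads assigned to an allele in either library. Kcnmb4os2 stood at 6.78 and 1.61 FPKM. Kcnd3os stood at 1.51 and 0.110 FPKM, and Kcnab3os stayed below 1 in both libraries. In all, 37 of the 96 genes overlap another listed gene.

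The order of levels was much the same in both libraries. Of the 10 highest genes in each library, 7 were shared, and Spearman's rho was 0.978 over the 72 genes with at least 1 FPKM in library 1, a description over genes that share 2 libraries. The median log2 ratio of library 2 over library 1, with 0.1 added to each FPKM, was -2.50 for these 72 genes against -2.44 for the 15101 genes of all kinds with at least 1 FPKM in library 1, a difference of -0.06. The difference was -0.18 with a pseudocount of 1 and -0.21 over genes above 0 in both libraries. Relative to all genes, the lowest were Kcnh3 by -0.79, Kcnk13, a leak channel known from microglia, by -0.77, and Kcnj4 by -0.71. Higher than all genes were Kcnmb2, a beta subunit of Kcnma1, by 0.61, and Kcnu1, known as a channel of sperm, by 0.52. Both of these were low in both libraries, with at most 3.37 FPKM and 10 or fewer allele reads in library 2, and Kcnk13 had 70 and 4 reads. With 1 group there was no test of these differences. Scaled by the 5.88-fold median difference given above, the summed oligodendrocyte markers of library 2 were 0.597 times those of library 1. The 4 general neuronal markers were at 1.34 times, but excitatory neuron markers at 0.996, inhibitory neuron markers at 1.06 and striatal neuron markers at 0.803 times. Astrocyte markers were at 0.936 times, microglial markers at 0.907 times, and endothelial and mural cell markers at 1.07 times. Choroid plexus markers were at 2.99 times, from unscaled sums of only 2.36 and 1.20 FPKM, with 0 of 4 genes at 1 FPKM in each library. The part of such shifts in the gene differences was not tested.

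**Figure D2:**
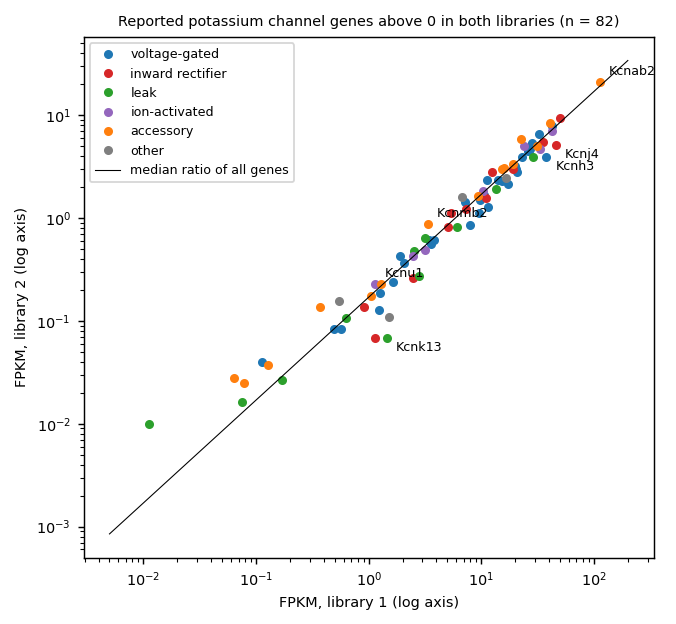
FPKM in library 2 against library 1, both on log axes, for 82 potassium channel genes above 0 in both, coloured by group, with the median ratio of all genes as a line. The points follow the line, Kcnh3, Kcnj4 and Kcnk13 lie below it, and Kcnmb2 and Kcnu1 lie above it.

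Most potassium channel genes drew on both alleles nearly alike. A minimum of 20 reads with a known allele, in both libraries, was met by 55 genes, all autosomal. Their Spretus share of summed reads had a median of 48.8% (interquartile range 45.3 to 50.5%), beside 48.1% (44.7 to 51.0%) over 9737 autosomal genes measured in the same way. A share between 40% and 60% was found for 52 of the 55 (94.5%), against 88.4% of those autosomal genes. The group medians were 47.3% for 28 voltage-gated genes, 49.6% for 9 inward rectifiers, 49.6% for 4 leak channels, 48.9% for 6 ion-activated channels and 48.8% for 8 accessory genes. Single genes ranged from 29.4% for Kcng4 to 53.3% for Kcnj4. The 41 genes under 20 reads in a library include 17 with at least 1 FPKM in library 1, so the shares leave out genes with few assigned reads, and 10 genes had no allele-assigned read.

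**Figure D3:**
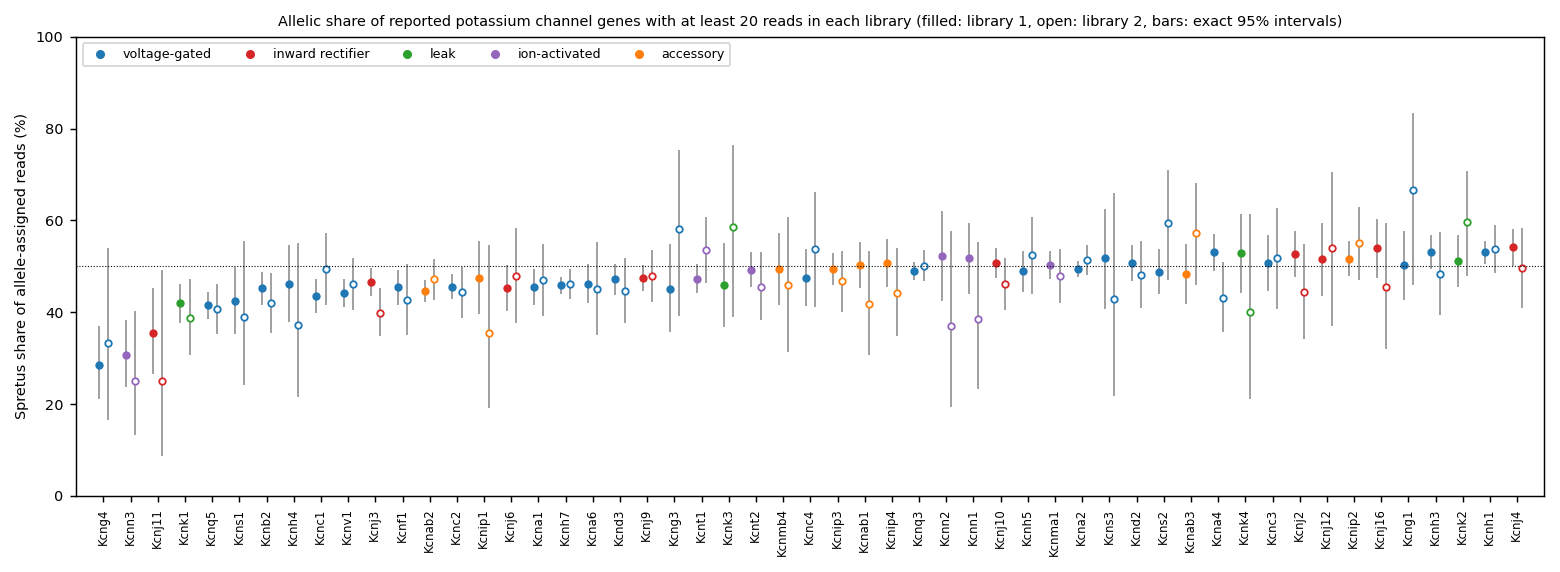
Spretus share of allele-assigned reads in percent for 53 of the 55 potassium channel genes that met the minimum of 20 reads, in order of the summed share, with exact 95% intervals; filled points are library 1, open points library 2 and the dotted line is 50%. Kcng4, Kcnn3 and Kcnj11 lie lowest, and the intervals of the libraries overlap for each gene.

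The 3 genes with most allele-assigned reads show how closely a share could be read. Kcna2 had Spretus shares of 49.4% of 2965 reads in library 1 and 51.3% of 933 in library 2. Kcnh7 had 45.8% of 2884 and 46.2% of 936. Kcnq3 had 49.0% of 2815 and 50.2% of 839. For each of them the libraries lay within about 2 percentage points. Genes that lie next to each other had shares within about 2 percentage points in 3 such pairs: Kcnj9 and Kcnj10, on chromosome 1, had 47.5% and 49.6%, Kcnj2 and Kcnj16 on chromosome 11 had 51.0% and 52.4%, and Kcna1 and Kcna6 on chromosome 6 had 45.8% and 46.0%.

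No gene passed the test for a share that differs between the libraries. By Fisher's exact test with Benjamini-Hochberg adjustment over all genes measured, 0 of 55 were called, as were 0 of 10053 genes in all (0.00%). At an unadjusted p under 0.05 there were 2 genes, against 2.39% of all genes. Kcna4, an A-type subunit of axons, had 53.1% in library 1 and 43.2% in library 2 (Fisher's exact p = 0.0239), and Kcnj3 had 46.5% and 39.9% (Fisher's exact p = 0.0346). The exact intervals of the libraries overlapped for 55 of 55 genes, and reads without molecular identifiers give intervals for counting error only.

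Of the 63 genes that met the test minimum of 10 reads with a known allele per library, 3 were called with allelic imbalance by edgeR's quasi-likelihood test at an adjusted p under 0.05, and each had more reads from C57. This is 4.76%, beside 8.55% of all genes tested in either direction and 6.23% toward C57. On the autosomes alone it was 2 of 62 (3.23%), beside 5.43% of autosomal genes in either direction and 3.04% toward C57. The other 33 genes were not tested. An unadjusted edgeR p under 0.05 was found for 7 of the 63, beside 2182 of the 11981 genes tested and 1786 of 11584 on autosomes.

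Kcnd1, an A-type subunit on the X chromosome, had 0 Spretus reads of 85 in library 1 and 0 of 14 in library 2. With 0 of 99 reads together, a share of up to 3.03% is allowed. Against a floor of 3 Spretus reads over both libraries, the 99 C57 reads were at least 33-fold higher. Its adjusted p was 3.28e-05 by edgeR's quasi-likelihood test (Benjamini-Hochberg). X-linked genes as a whole followed this pattern, with 394 of 397 called toward C57, so Kcnd1 shared it with most of its chromosome.

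Kcnn3, a calcium-activated channel of small conductance, had 50 Spretus reads of 163 in library 1 (30.7%) and 11 of 44 in library 2 (25.0%), a mean of 27.8% ± 4.01 (SD, n = 2). Both libraries lay well below the autosomal 48%, and the upper ends of their exact 95% intervals were 38.4% and 40.3%. The log2 ratio of Spretus over C57 was -1.17 ± 0.26 (SE), with an adjusted p of 0.0131 by edgeR's quasi-likelihood test (Benjamini-Hochberg). The call was lost with DESeq2 (adjusted p = 0.119), and over the alternatives the adjusted p ran from 1.24e-06 to 0.119. Its relatives Kcnn1 and Kcnn2 had 49.3% each over both libraries. Kcnn3 (ENSMUSG00000000794.9) lies at chr3:89520164-89675132 in mm10 and overlaps no other listed gene.

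Kcng4, a silent subunit that modifies Kcnb channels, had 38 Spretus reads of 133 in library 1 (28.6%) and 9 of 27 in library 2 (33.3%), a mean of 31.0% ± 3.37 (SD, n = 2). The upper ends of the exact 95% intervals were 37.0% and 54.0%, so library 2 alone did not set it apart from 48%. The log2 ratio was -1.09 ± 0.29 (SE), with an adjusted p of 0.0404 by edgeR's quasi-likelihood test (Benjamini-Hochberg). The call was lost with DESeq2 (adjusted p = 0.453), with a library total shared by the alleles (adjusted p = 0.0558) and in library 2 alone by an exact binomial test (adjusted p = 0.586), and the adjusted p ran from 2.76e-05 to 0.586. Kcng1 and Kcng3, of the same family, had 52.4% and 47.9%. Kcng4 (ENSMUSG00000045246.10) lies at chr8:119623854-119635680 in mm10 and overlaps no other listed gene.

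**Figure D4:**
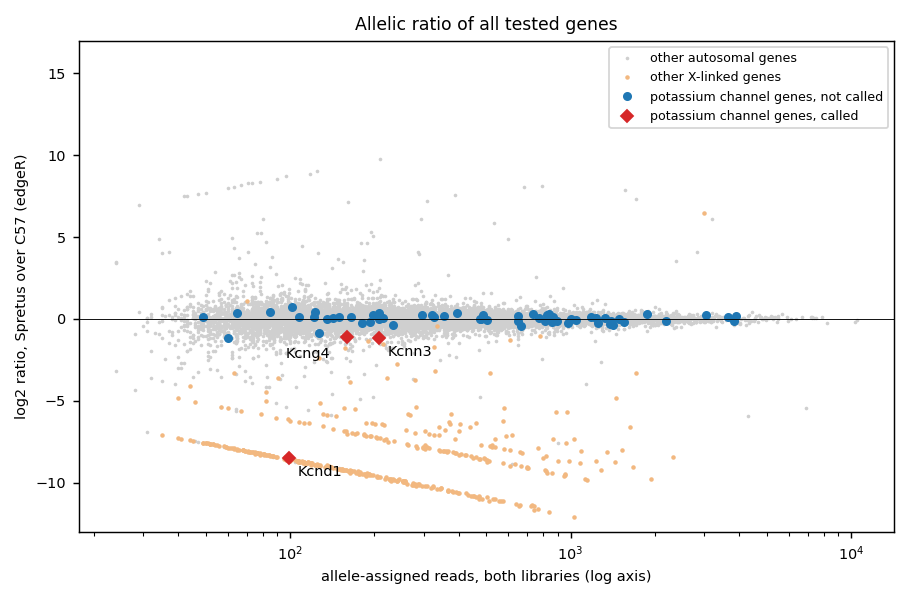
Log2 ratio of Spretus over C57 from edgeR against allele-assigned reads of both libraries (log axis) for all tested genes, with potassium channel genes as large points and called ones as diamonds. Kcnn3 and Kcng4 lie near -1. Kcnd1 lies in the band of X-linked genes with 0 Spretus reads, whose fitted ratio depends on the prior count. Most other potassium channel genes lie near 0, apart from Kcnk6 at -1.16, Kcnj11 at -0.86 and Kcnk10 at 0.74. Kcnk6, Kcnj11 and Kcnk10 had 60, 127 and 102 reads, and were called with the library block but not in the fit shown.

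With the library as a block, which pairs the alleles of the same RNA, 14 of the 63 genes were called (22.2%), 7 in each direction, beside 25.0% of all genes and 22.5% of autosomal genes. Toward C57 the autosomal share was 11.3%, and toward Spretus 11.1%. All 3 genes named above were among them: Kcnn3 had a log2 ratio of -1.12 (adjusted p = 1.38e-05) and Kcng4 one of -1.13 (adjusted p = 1.03e-04) in this edgeR fit. The other 11 genes lay between shares of 28.3% and 60.8%. An exact binomial test of the summed reads called the same 14 genes, beside 24.6% of all genes, and DESeq2 called Kcnd1 alone, beside 5.41%.

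Within these 11, 4 lay toward C57 after scaling. Kcnq5 had 41.5% of 1085 reads from Spretus in library 1 and 40.6% of 330 in library 2, with a blocked log2 ratio of -0.38 (edgeR with library block, adjusted p = 2.57e-05), and it overlaps other listed genes such as Gm26580. The leak channel Kcnk1 had 41.9% of 525 and 38.7% of 142, at -0.38 (edgeR with library block, adjusted p = 0.00508). Kcnj11 had 35.5% of 107 and 25.0% of 20, at -0.83 (edgeR with library block, adjusted p = 0.0105). The libraries lay on the same side of 48% for these 3 genes. Kcnk6, of the leak group, had 22.4% of 49 reads but 54.5% of 11, so its direction rested on library 1 and turned in library 2 alone.

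The other 7 lay toward Spretus after scaling, where a share of about 48% is balance. Kcnh1, of the ether-a-go-go family, had 53.0% of 1512 and 53.8% of 359, at 0.32 (edgeR with library block, adjusted p = 3.69e-05), and it overlaps Hhat. Kcnk10, a relative of Kcnk2, had the largest ratio at 0.76 (edgeR with library block, adjusted p = 0.0353), from 61.9% of 84 and 55.6% of 18. Kcnj4 (0.32), Kcnh3 (0.27), Kcnip2 (0.27) and Kcna2 (0.13) had adjusted p-values of 0.0140, 0.0298, 0.0333 and 0.0307 in edgeR with library block. Kcnj4 had shares of 54.1% in library 1 and 49.6% in library 2, Kcnh3 53.2% and 48.4%, and Kcnip2 51.7% and 55.1%. For Kcnj4 and Kcnh3, library 2 thus lay closer to 48% than library 1. In the fit without the block, a library total shared by both alleles lowered the log2 ratio of Kcna2 from 0.15 to 0.02.

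Below the read minimum, 4 genes were picked out after their values were seen. X-linked Kcne1l had 0 Spretus reads of 25 and 0 of 6, so the share could be up to 9.68%, and against a floor of 3 Spretus reads over both libraries its 31 C57 reads were at least 10.3-fold higher. Kcnu1, on chromosome 8, had 1 Spretus read of 23 and 0 of 4. Kcnj14, an inward rectifier, had 20 of 25 and 4 of 6, the other way. With a minimum of 1 read in all, edgeR's quasi-likelihood test, adjusted by Benjamini-Hochberg, called these 3 besides the 3 above (adjusted p = 8.90e-07, 2.11e-04 and 0.0490), the 1 setting in which they could be tested, and these 6 of 86 genes (6.98%) stand beside 7.90% of all genes in that setting. Kcnh6, of the ether-a-go-go family, had 11 of 36 and 1 of 7 and was not called.

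Genes known to bind or regulate these channels include Dpp6 and Dpp10, Kcnd partners, and the scaffold gene Dlg4. Of 20 tested of 25, edgeR's quasi-likelihood test called 0, beside 5.43% of autosomal genes, and DESeq2 called 0, beside 2.2%. At such shares few calls could fall among 20 genes, so the 0 calls do not set them apart. At an unadjusted edgeR p under 0.05 there were 0, beside 1786 of 11584 autosomal genes. With the library block 3 of 20 were called, beside 25.0% of all genes. Dpp6 had 52.3% and 52.7% Spretus reads, Cntn2, an adhesion protein of the axonal Kcna complex, 52.2% and 51.1%, and Dpp10 42.1% and 43.0%. Among receptor subunits 2 of 37 were called, beside 8.55% of all genes and 5.43% of autosomal genes. Both lay toward C57, and X-linked Gria3 was among them, with 0% Spretus of 767 reads. With the block 9 were called, beside 25.0% of all genes and 22.5% of autosomal genes. Among sodium and calcium channel genes 0 of 30 were called by edgeR's quasi-likelihood test and 0 by DESeq2, beside the same 5.43% and 2.2% of autosomal genes. At an unadjusted edgeR p under 0.05 there was 1, and with the block 8 were called, beside the same 25.0%.

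Few genes held a region whose methylation was listed as different between the alleles, among potassium channel genes as among all genes. Of the 96 genes, 5 (5.21%) had a listed region in the gene or within 2 kb of it, beside 2.36% of all genes and 5.29% of the genes that met the test minimum. All 5 regions lay inside the gene. Among autosomal genes of at least 100 kb, 4 of 22 potassium channel genes had a region, beside 8.97% of all such genes, and among X-linked genes it was Kcne1l of 2, beside 16.8%. Levels are fractions of methylated cytosines given by the authors once for each allele, with no values per library, and their coverage and cytosine context are unknown.

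The 4 autosomal regions were short, lay in long genes on chromosome 1 and were listed at 0 on the Spretus allele. In Kcnb2 (chr1:15287254-15723750, mm10), a delayed rectifier, a region of 103 bp had a level of 0.919 on C57. In Kcnh1 (chr1:192190774-192510159) a region of 6 bp had 0.986 on C57. In Kcnk2 (chr1:189207930-189402273) a region of 10 bp had 0.922, and in Kcnt2 (chr1:140246158-140612067) a region of 18 bp had 0.839. Their shares of Spretus RNA were 44.4% for Kcnb2, 53.2% for Kcnh1, 52.8% for Kcnk2 and 48.5% for Kcnt2, on both sides of 48%. None of the 4 was called in the edgeR test without the block. With it Kcnh1 alone among them was called, toward Spretus (edgeR with library block, adjusted p = 3.69e-05). Regions of this kind were common in the list: 409 of the 445 shortest autosomal ones (under 50 bp, 91.9%) had the higher level on C57. Whether these regions are exonic or intronic was not determined here, nor whether their cytosines are present in the Spretus sequence.

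Kcne1l carried the 1 long region, of 529 bp at chrX:142305642-142306171, with a level of 0.119 on C57 and 0.702 on Spretus. It ends 27 bp inside the RefSeq start, next to the flank printed above with its 9 CG. The allele without RNA reads was the more methylated at the start of the gene. On the X chromosome 519 of 594 regions (87.4%) were higher on Spretus, as in Kcne1l.

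With the distance widened to 10 kb, 9 genes had a region, and the share of all genes at this distance was not determined. Kcnd1 had one of 622 bp at 2.39 kb from the gene, with 0 on C57 and 0.605 on Spretus. Kcnk13 had one of 445 bp at 4.07 kb, with 0.218 and 0.740, and Kcnk6 one of 925 bp at 8.68 kb, with 0.211 and 0.723. These 3 regions were higher on Spretus, whether on the X chromosome or not.

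**Figure D5:**
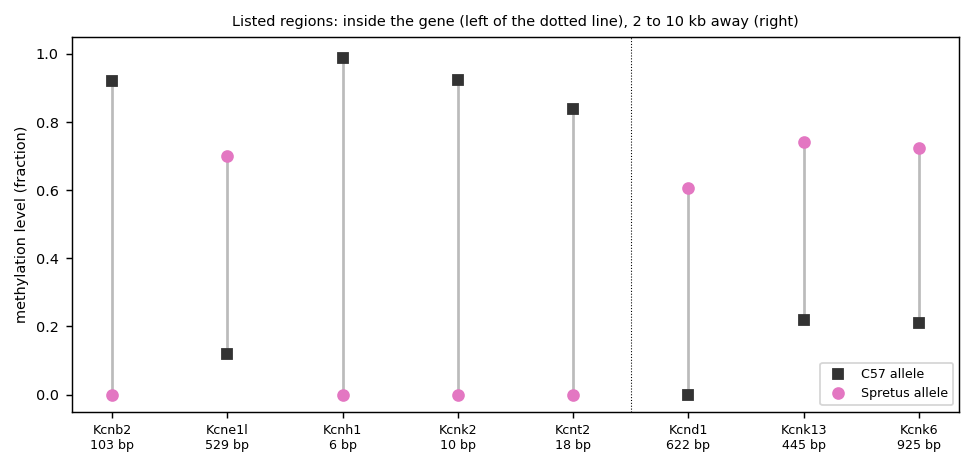
Methylation level (fraction) on the C57 allele (squares) and the Spretus allele (circles) in the regions inside potassium channel genes, left of the dotted line, and 2 to 10 kb away, right of it, with region lengths under the gene names. The regions of 103 bp or less inside a gene have 0 on Spretus, and the regions of 445 bp or more are higher on Spretus.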

How the data were processed

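RNA libraries were depleted of ribosomal RNA and made with a kit that marks strand, per the labels' protocols. The authors deposited, per the file headers, raw counts of reads per allele and gene, and an FPKM value that covers both alleles. For MethylC-seq they deposited a list of regions with the level of each allele as a fraction. The submitters' processing notes name bedtools 2.2.4, HTSeq 0.6.0, Cufflinks 2.1.1, TopHat2 2.0.9 and mm10. Allele assignment, gene annotation, use of strand in counting, and the thresholds of the region list were not given in the sources used here. Gene starts were counted from 1 after adding 1 to the deposited start. Of 1613 regions, 13 without levels were left out. RefSeq flanks come from GRCm38.p6, the assembly of mm10.

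Counts were tested with edgeR 4.0.16 (quasi-likelihood, TMM, Spretus over C57, R 4.3.3) over all 11981 genes that had 10 or more reads with a known allele per library, with Benjamini-Hochberg adjustment over all of them and a threshold of 0.05. The test was tested on simulated data. It had 2 residual degrees of freedom. DESeq2 1.42.0, an exact binomial test of summed reads, a library block, other scalings, read minimums and thresholds were alternatives. Both alleles of a library were read from the same RNA, which pairs them by design: deviations of the alleles from their means had a correlation of 0.597 over 7565 autosomal genes with at least 200 reads. Intervals are exact Clopper-Pearson 95% intervals. For a share of 0 the limit is 3 reads. Depth was 4768237 and 1291903 allele-assigned reads.

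Genes were named by rule: the 3 highest of each group by mean FPKM, the 3 with most reads, genes called without and with the block, genes with a listed region or past the test between libraries, and the 3 most above and below the median library ratio. Further genes were named as relatives of these, after their values were seen. The values of some genes named by these rules are not reported here. The genes and lists were chosen with earlier results of these data known.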

Additional observations from a re-analysis of the deposited data

How the results depend on the processing

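The number of potassium channel genes called with allelic imbalance was 3. It was 14 with the replicate block, which pairs the alleles of a library, and 14 with an exact binomial test of summed reads. DESeq2 gave 1 and a minimum of 1 read in all gave 6. In that order these are 22.2%, 22.2%, 1.59% and 6.98% of the channel genes tested. They stand beside 25.0%, 24.6%, 5.41% and 7.90% of all genes, and the 3 beside 8.55%. Leaving out a library gave 3 to 11 calls, from an exact binomial test within the other library. The median Spretus share was 48.8%, and 46.1% in library 2 alone and 48.8% in library 1 alone. Other read minimums gave 48.8% and 48.9%. The count of genes with an FPKM of at least 1 in each library was 47, against 74 at a threshold of 0.1 and 14 at 5, and 47 to 72 with a library left out. The median log2 ratio between libraries was -2.50, and -2.08 with a pseudocount of 1. The count of genes with a listed region was 5, against 9 within 10 kb and 1 with regions of at least 200 bp and a difference of at least 0.5. The share of all genes was not determined for the other region settings, the other FPKM thresholds or the tests within 1 library. Kcnk6 alone reversed, with a log2 ratio of 0.42 without library 1 and -1.56 without library 2. The cause of these changes was not tested, except where a setting admits more or fewer genes or regions by construction. A library total shared by both alleles moved the median log2 ratio of autosomal genes by -0.13. Library 2 had 3.69 times fewer reads, which limits single genes: at 27 reads, as for Kcng4, its interval reached from 16.5% to 54.0%.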
